A study of Chlorocebus sabaeus with 45 samples.

Results

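The genes described here are 9 stress response genes of whole blood: the 3 GADD45 genes (GADD45A, GADD45B and GADD45G), the 3 sestrin genes (SESN1, SESN2 and SESN3), the cell cycle inhibitors CDKN1A and CDKN1B, and MDM2. They were taken by symbol from the 33994 rows of the expression tables. The group is known from stress biology, but it was chosen with earlier results of these data known. All 9 were among the 18753 genes with more than 0.5 CPM (fragments per library, rescaled to a common total) in 3 or more libraries, which were tested. The blood came from 15 juvenile male vervet monkeys (Chlorocebus sabaeus), each from a different wild troop on St. Kitts, which were then placed singly in a primate facility under quarantine conditions, which served as a model of psychosocial stress. Each animal gave 1 sample on day 0 (baseline, in the field, under ketamine with xylazine), 1 on day 3 and 1 on day 14 (both in the facility, under dexmedetomidine with midazolam), which gave 45 libraries and 15 in each group. The days are those of the sample labels, and other texts of the study place the later samplings on somewhat different days. Every animal went through relocation, no animal stayed outside as a control, and place and sedative changed together after day 0, so that in comparisons with day 0 these cannot be told apart from the days of quarantine.

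The 9 genes belong to connected parts of the response to cellular stress. The transcription factor p53 is stabilised after DNA damage and switches on CDKN1A, GADD45A, SESN1, SESN2 and MDM2, and the MDM2 protein in turn marks p53 for destruction. CDKN1A and CDKN1B encode inhibitors of cyclin-dependent kinases that hold cells out of division, and CDKN1B is known for keeping resting lymphocytes quiescent. GADD45 proteins have no enzyme activity of their own and bind partners such as the kinase MAP3K4, which feeds the p38 and JNK pathways. Sestrins restrain the growth kinase complex mTORC1 through the GATOR proteins. SESN3 is a known target of FOXO transcription factors, and GADD45B is a known early target of NF-kB.

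Levels are given as scaled FPKM, that is, fragments on a gene relative to its length and to the library's total on genes, divided by a factor (TMM) that sets the typical gene equal between libraries. Between 13216275 and 31469332 fragments per library fell on genes. The scaling matters on day 14: the 20 most abundant genes of a library held a median share of 10% at baseline, which became 13.9% by day 3 and 25.5% by day 14, and the scaling factors had medians of 1.14, 1.13 and 0.789. With scaling, the median of the log2 fold changes over all tested genes was 0.01 from day 0 to day 3, −0.02 from day 0 to day 14 and −0.02 from day 3 to day 14. Without it these medians were −0.03, −0.36 and −0.35. The RNA integrity number of the samples was on average higher on day 3 than at baseline and higher again on day 14. With scaling, changes are relative to the typical gene, and for each of the 9 genes the unscaled value is given where its direction or call differed.

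On day 3 vs. day 0, GADD45A, CDKN1A and SESN3 rose and GADD45B and CDKN1B fell, so that 5 of the 9 genes passed an adjusted p of 0.05 (limma, animal as a block), against 19.2% of all tested genes (10.1% higher and 9.04% lower). On day 14 vs. day 0, GADD45A and SESN3 rose and GADD45B and SESN2 fell, which made 4 of 9, against 44.0% of all genes (23.0% higher and 21% lower). That share was close to the background (with RNA integrity in the fit, the same 4 genes passed among 4070 of the 18753). The rise of GADD45A was large among all genes, with only 0.229% of the 18753 genes showing a larger absolute log2 fold change, and that of SESN3 was exceeded by 1.57%. On day 14 vs. day 3, GADD45A and SESN3 rose again and 0 of the other 7 passed limma's adjusted test (CDKN1A and MDM2 had an unadjusted p under 0.05, and a voom fit to fragment counts called CDKN1A), against 23.7% of all genes (13.9% higher and 9.76% lower). The comparisons share their day 0 or their later samples and are not independent of each other. The median log2 fold change of the 9 genes was −0.14, −0.18 and 0.08 in the 3 comparisons. Without TMM scaling, 8 of the 9 passed between day 0 and day 14 (GADD45A and SESN3 up, GADD45B, GADD45G, CDKN1B, MDM2, SESN1 and SESN2 down), and 6 passed between day 3 and day 14 (GADD45A and SESN3 up, CDKN1A, MDM2, SESN1 and SESN2 down). Among all genes, rises and falls between day 0 and day 14 numbered 4316 and 3937 with scaling, and 1742 and 9360 without. Between day 3 and day 14 they numbered 2616 and 1830 with scaling, and 933 and 8641 without.

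**Figure D1:**
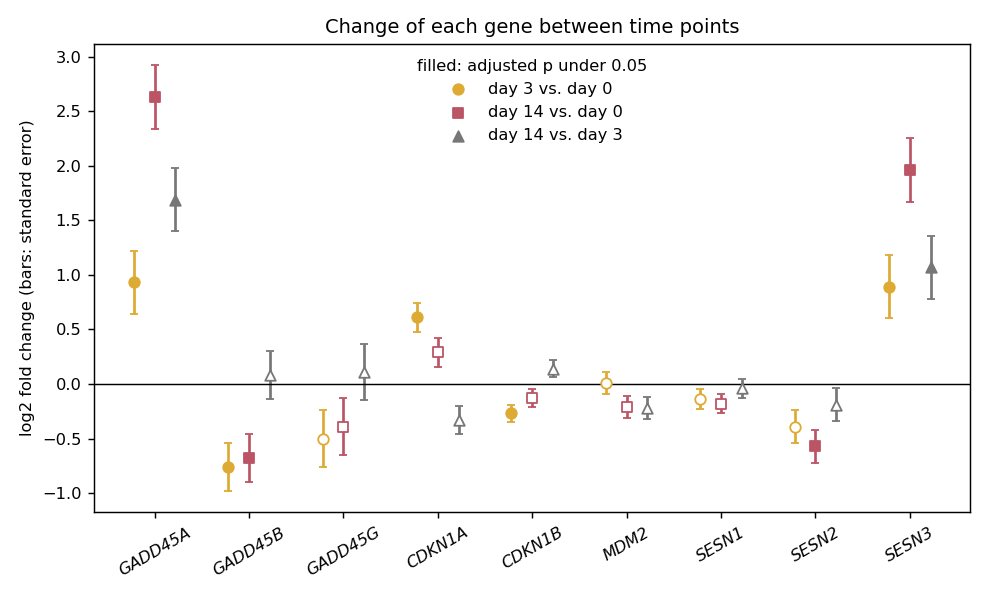
Log2 fold change of each of the 9 genes for each pair of the 3 days, with its standard error as a bar; filled symbols passed an adjusted p of 0.05 in limma. GADD45A and SESN3 stand above 0 in each comparison and reach 2.63 and 1.96 on day 14 against baseline, while GADD45B lies at −0.76 and −0.68 against day 0.

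GADD45A, the DNA damage and p53 responsive member of its family, rose at both steps. On day 0 its level ran from 5.32 to 91.3 scaled FPKM with a median of 24.8. On day 3 it ran from 13.1 to 130 with a median of 44.8, and on day 14 from 46.0 to 325 with a median of 151. The groups overlapped, but 12 of the 15 day 14 samples lay above the highest day 0 sample. Animal 7 had the highest scaled level on all 3 days. Without scaling, animals 13 (66.0 FPKM) and 15 (64.4) were above it (63.0) on day 0. The mean rose from 31.7 ± 27.1 (SD, n = 15) on day 0 to 51.5 ± 31.2 on day 3 and 163 ± 84.4 on day 14. Between day 0 and day 14 the log2 fold change was 2.63 (standard error 0.29, adjusted p = 2.61e-07), a 6.18-fold rise, and the level was higher in 15 of 15 animals. From day 3 to day 14 it was 1.69 (standard error 0.29, adjusted p = 0.000208), with 14 animals higher. The step from day 0 to day 3 was smaller, with a log2 fold change of 0.93 (standard error 0.29, adjusted p = 0.0204), and 14 of 15 animals were higher. In 13 animals the level rose at both steps. The day 3 call was lost without the block (adjusted p = 0.0802) and in a fit that included RNA integrity (adjusted p = 0.0534).

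GADD45B went the other way. Its level on day 0 was spread from 21.2 to 166 scaled FPKM, with a median of 56.9, whereas on day 3 it lay between 19.3 and 44.8 with a median of 32.9, and on day 14 between 17.3 and 46.8 with a median of 34.9. The highest day 0 samples were thus well above anything seen later, and the lowest were not. The SD of the log2 level went from 0.92 on day 0 to 0.39 on day 3 and 0.46 on day 14, a narrowing that was not tested. The mean fell from 64.8 ± 43.3 to 32.5 ± 8.52 and 34.7 ± 9.49 scaled FPKM. The log2 fold change was −0.76 on day 3 vs. day 0 (standard error 0.22, adjusted p = 0.0142), with 10 of 15 animals lower. It was −0.68 on day 14 vs. day 0 (standard error 0.22, adjusted p = 0.0129), with 11 animals lower. Day 14 differed from day 3 by 0.08 (standard error 0.22, adjusted p = 0.81), and by −0.30 without scaling, which did not pass either (adjusted p = 0.211).

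GADD45G was the least abundant of the 9 genes and rested on 2 to 60 fragments per library. Its level ran from 0.238 to 2.89 scaled FPKM on day 0 (median 0.739), from 0.21 to 1.85 on day 3 (median 0.486) and from 0.282 to 1.37 on day 14 (median 0.743). The log2 fold change was −0.50 on day 3 vs. day 0 (standard error 0.26, adjusted p = 0.191) and −0.39 on day 14 vs. day 0 (standard error 0.26, adjusted p = 0.236), with 10 of 15 animals lower each time. Neither difference passed, and counting error on so few fragments adds to the spread between animals. Without scaling the day 14 difference was −0.75 and passed (adjusted p = 0.00944). Between day 3 and day 14 the value was 0.11, and it turned to −0.22 without scaling and to −0.05 without animal 7, with no call in any of these.

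**Figure D2:**
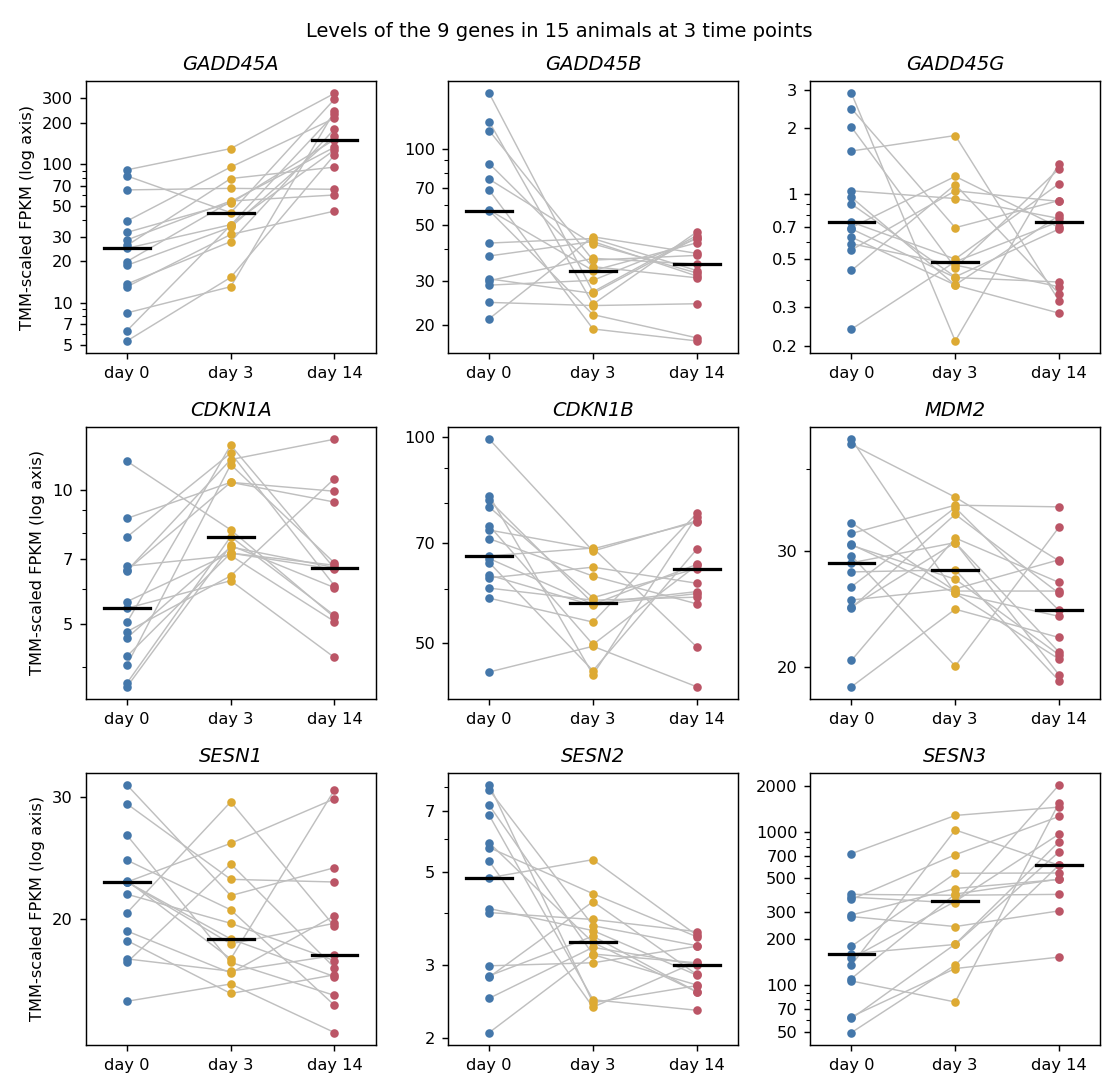
Level of each of the 9 genes in TMM-scaled FPKM (log axis) in 15 animals on day 0, day 3 and day 14; each point is a library, grey lines join the samples of an animal and black bars mark the median. GADD45A and SESN3 climb in most animals, GADD45B and SESN2 lose their high day 0 values, and CDKN1A has its highest median on day 3 (7.85).

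SESN3 was the most abundant member and, after GADD45A, the one that moved most. Its level ran from 49.4 to 722 scaled FPKM on day 0 (median 161), from 78.1 to 1280 on day 3 (median 353) and from 153 to 2020 on day 14 (median 607). The groups overlapped over much of this range, and 7 of the 15 day 14 samples were above the highest day 0 sample. The mean went from 229 ± 180 to 428 ± 343 and 828 ± 524 (SD, n = 15). The log2 fold change on day 14 vs. day 0 was 1.96 (standard error 0.29, adjusted p = 3.53e-06), 3.9-fold, with 14 of 15 animals higher. From day 3 to day 14 it was 1.07 (standard error 0.29, adjusted p = 0.00915), with 14 animals higher and a median within-animal change of 0.34. Without scaling this value was 0.69 (adjusted p = 0.011), with 11 of 15 animals higher. The largest within-animal change in this comparison, 4.30 with scaling, was that of animal 8, which had the lowest day 3 level. Without the block the scaled call in this comparison was lost (adjusted p = 0.0538). On day 3 vs. day 0 the log2 fold change was 0.89 (standard error 0.29, adjusted p = 0.0276), with 11 animals higher. That call was lost without animal 2 (adjusted p = 0.0588), animal 6 (0.0592) or animal 11 (0.0743), without the block (0.12) and in a fit that included RNA integrity (0.0592). Over the 3 days the level rose at both steps in 10 animals.

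SESN2, the sestrin known to sense leucine and to respond to the integrated stress response factor ATF4, fell. It ran from 2.06 to 8.1 scaled FPKM on day 0 (median 4.85), from 2.37 to 5.36 on day 3 (median 3.39) and from 2.33 to 3.60 on day 14 (median 3.00). As for GADD45B, the highest values came down. The lowest value did not (2.06 on day 0, 2.33 on day 14). The SD of the log2 level went from 0.63 to 0.32 and 0.18, a narrowing that was not tested. The mean was 4.87 ± 2.03 on day 0, 3.47 ± 0.804 on day 3 and 2.99 ± 0.394 on day 14. Between day 0 and day 14 its log2 fold change was −0.57 (standard error 0.15, adjusted p = 0.00323), with 11 of 15 animals lower. On day 3 vs. day 0 it was −0.39 (standard error 0.15, adjusted p = 0.0759), and it passed without animal 3, 5, 9 or 12, with a lowest adjusted p of 0.0305 (without animal 12). The day 14 vs. day 3 value was −0.19 (standard error 0.15, adjusted p = 0.392), and without scaling it was −0.56 and passed (adjusted p = 0.00412).

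SESN1, the first sestrin described as a p53 target, had the smallest fold changes of the 3 sestrins, and these did not pass. Its mean was 22.1 ± 4.44 scaled FPKM at baseline, 20.1 ± 3.99 on day 3 and 19.7 ± 5.07 on day 14. The lowest and highest samples were 15.2 and 31.2 on day 0, 15.6 and 29.5 on day 3, and 13.7 and 30.7 on day 14, so that the groups overlapped almost entirely. The log2 fold change was −0.14 on day 3 (standard error 0.09, adjusted p = 0.317) and −0.18 on day 14 (standard error 0.09, adjusted p = 0.115) vs. day 0, each with 11 of 15 animals lower. The day 14 value passed without animal 8 (adjusted p = 0.0383) or animal 9 (0.0368), and without TMM scaling, where it was −0.60 (8.15e-05). From day 3 to day 14 the value was −0.04 (standard error 0.09, adjusted p = 0.778), and without scaling it was −0.42 and passed (adjusted p = 0.005).

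CDKN1A, which encodes the p53-induced inhibitor p21, had a rise on day 3. It ran from 3.61 to 11.6 scaled FPKM on day 0 (median 5.42), from 6.25 to 12.6 on day 3 (median 7.85) and from 4.20 to 13 on day 14 (median 6.66). The lowest day 3 sample was above the day 0 median. The mean was 5.94 ± 2.17 on day 0, 8.92 ± 2.24 on day 3 and 7.22 ± 2.43 on day 14. On day 3 vs. day 0 the log2 fold change was 0.61 (standard error 0.13, adjusted p = 0.00214), and 14 of 15 animals were higher. Animal 13, with the highest day 0 level, was the exception. Of the 9 genes it was the one whose level went up and then down in the most animals, 12 of 15. The step from day 3 to day 14 was −0.33 (standard error 0.13, adjusted p = 0.0717), with 13 animals lower. It passed without animal 6 (adjusted p = 0.04) or animal 7 (0.027), in a fit to the recovered fragments (0.0473) and without TMM scaling (−0.71, 0.00133). Against day 0 the day 14 value was 0.29 (standard error 0.13, adjusted p = 0.0817), which passed without animal 13 (0.0149) and turned to −0.13 without scaling (0.486).

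CDKN1B, which encodes p27, was lower on day 3 and, with scaling, closer to baseline on day 14. It lay between 45.3 and 99.3 scaled FPKM on day 0 (median 67.0), 44.9 and 68.8 on day 3 (median 57.1), and 43.1 and 77.3 on day 14 (median 64.2). The log2 fold change on day 3 vs. day 0 was −0.27 (standard error 0.08, adjusted p = 0.0154), with 12 of 15 animals lower and within-animal changes from −0.87 to 0.13. This call was lost without TMM scaling (−0.31, adjusted p = 0.137). With scaling, the level went down and then up in 11 animals. Without it, only 5 of 15 animals were higher on day 14 than on day 3. The later step of 0.14 (standard error 0.08) did not pass (adjusted p = 0.19), and without scaling it was −0.24 (0.132). For day 14 against baseline the value was −0.13 (standard error 0.08, adjusted p = 0.189), which became −0.55 without scaling (0.000882).

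MDM2, the ubiquitin ligase that limits p53, did not pass in any of the 3 comparisons. Its mean was 29.4 ± 7.13 scaled FPKM at baseline, 29.2 ± 4.65 on day 3 and 25.1 ± 4.78 on day 14. The lowest and highest samples were 18.7 and 44.3 on day 0, 20.1 and 36.2 on day 3, and 19.1 and 35.0 on day 14. The log2 fold change on day 3 vs. day 0 was 0.01 (standard error 0.10, adjusted p = 0.963), −0.03 without scaling. On day 14 it was −0.21 vs. day 0 (standard error 0.10, adjusted p = 0.0894) and −0.22 vs. day 3 (standard error 0.10, adjusted p = 0.106), with 13 of 15 animals lower in the second. The first passed without animal 5 (adjusted p = 0.0442), 6 (0.0393) or 10 (0.0349), the second without animal 7 (0.0365). Both passed without scaling, with −0.64 and −0.60.

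Per unit length, the order of the mean scaled FPKM on day 0 was SESN3, CDKN1B, GADD45B, GADD45A, MDM2, SESN1, CDKN1A, SESN2 and GADD45G. Neighbours in this order were not always apart: CDKN1B was above GADD45B in 10 of 15 animals, and GADD45A was above MDM2 in 5, since its mean was raised by a few high samples. GADD45A moved from the fourth place on day 0 to the third on day 3 and the second on day 14, where it was above CDKN1B in 12 of 15 animals. SESN3 was above the next gene in 12 animals on day 0 and in 15 on both later days. SESN2 was above GADD45G in 15 animals on each day.

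Whether related genes moved unequally was tested in each animal as the change of one gene minus that of the other on the log2 scale, where a library's scaling largely drops out. Of 21 such tests (7 pairs in 3 comparisons, two-sided exact sign-flip test over 15 animals, adjusted over the 21), 14 passed. GADD45A moved apart from GADD45B in 15 of 15 animals on day 3 vs. day 0, by 1.70 ± 1.09 (SD), and on day 14 vs. day 0, by 3.31 ± 1.26. The adjusted p of 0.000214 for both is the smallest this test gave, since 6.1e-05 is the lowest unadjusted p that 15 animals allow. GADD45A minus GADD45G was 3.02 ± 1.38 on day 14 vs. day 0, again in 15 of 15 animals. GADD45B and GADD45G did not differ beyond the spread between animals, with −0.29 ± 1.16 on day 14 vs. day 0 (adjusted p = 0.368 by the exact test).

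SESN3 moved apart from both other sestrins in all 3 comparisons. Between day 0 and day 14, SESN1 minus SESN3 was −2.14 ± 1.14 and SESN2 minus SESN3 was −2.54 ± 1.08, each in 15 of 15 animals (adjusted p = 0.000214 by the exact test). The fall of SESN2 was not shown to differ from the change of SESN1, with a difference of 0.40 ± 0.85 (adjusted p = 0.122), which passed without animal 12. CDKN1A minus CDKN1B was 0.88 ± 0.67 on day 3 vs. day 0 (14 of 15 animals, adjusted p = 0.000732 by the exact test), and −0.47 ± 0.69 on day 14 vs. day 3 (12 of 15 animals lower, adjusted p = 0.0298). The latter was lost without animal 2, 4, 8, 9 or 13. Over the full interval from day 0 the difference of 0.42 ± 0.79 did not pass (adjusted p = 0.089), but did without animal 13.

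**Figure D3:**
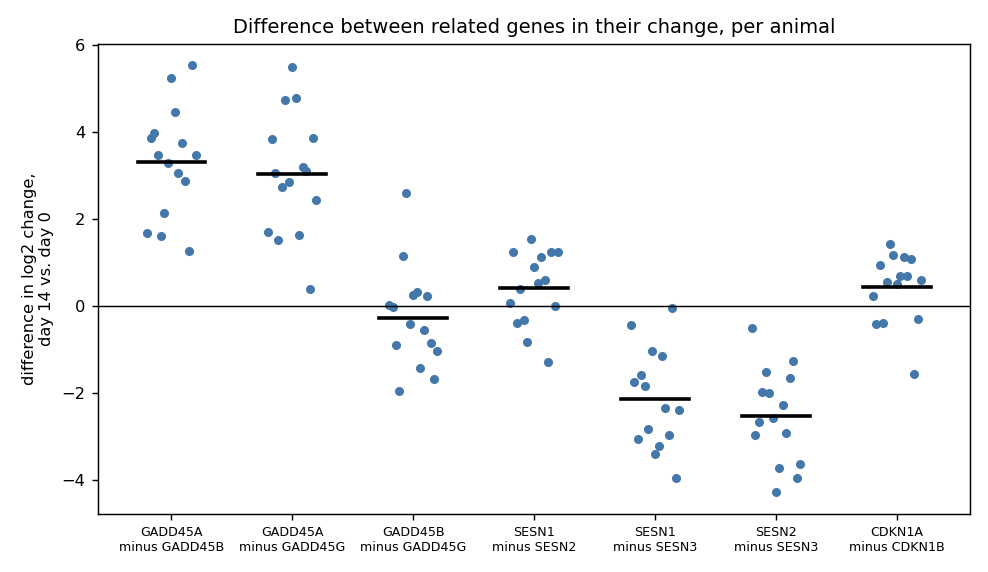
Difference between the log2 changes of 2 related genes on day 14 vs. day 0 (vertical axis); each point is 1 of 15 animals, spread sideways by animal number, and the black bar is the mean. All animals lie above 0 for GADD45A minus GADD45B (mean 3.31) and below 0 for SESN2 minus SESN3 (mean −2.54), whereas the points for GADD45B minus GADD45G fall on both sides.

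Whole blood is a mixture, and in such samples fewer cells of a type and less RNA per cell cannot be told apart. Marker genes of 7 blood cell types were read beside the members, and several lists changed between the days. All 16 erythroid and reticulocyte markers, among them ALAS2 and SLC4A1, rose on day 14 vs. day 0, 13 rose on day 3 vs. day 0 and 10 rose from day 3 to day 14. Their summed level ran from 2360 to 53400 CPM on day 0, 14100 to 77700 on day 3 and 29300 to 108000 on day 14. Of the 10 neutrophil markers, 8 fell on day 3 and 9 on day 14 vs. day 0, with summed levels from 2310 to 26800, 838 to 6910 and 626 to 3530 CPM. Of the platelet markers, 9 of the 9 tested rose on day 3 and 7 on day 14 vs. day 0, and 5 fell between day 3 and day 14, with summed levels from 323 to 4060, 900 to 4600 and 504 to 2170 CPM. Of 6 NK cell markers, 5 rose on each later day, while their summed level ran from 95.6 to 365, 179 to 649 and 143 to 884 CPM. Of 8 T cell markers 1 rose and 1 fell on day 3 vs. day 0, and of 8 monocyte markers 2 rose. On day 14 vs. day 0, 3 of 8 T cell markers rose, 3 of 8 monocyte markers fell and 2 of 6 B cell markers fell, after 0 of the 6 had passed limma's adjusted test on day 3 (1 of them, BLK, had an unadjusted p under 0.05, and the voom fit called 0). From day 3 to day 14, 6 of 8 monocyte and 4 of 6 B cell markers fell, while 2 of 8 T cell and 2 of 6 NK cell markers rose. On day 14 vs. day 0, the shares of T cell, monocyte and B cell markers called were below the 44.0% of all genes. The summed T cell level, which is not TMM-scaled, had medians of 1060, 965 and 804 CPM on days 0, 3 and 14. None of the markers measured was at 0 in all libraries, and PF4 was not analysed here.

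The members differed in the cell type markers to which their levels were closest. Over the 45 libraries (15 animals on 3 days, so the points share animals and days), GADD45A and SESN3 each had Pearson's r = 0.94 with the mean log2 level of the erythroid markers, and 0.89 and 0.90 after the means of each animal and day were removed. GADD45B followed the neutrophil markers with r = 0.87, and 0.88 after that removal. SESN2 did so with 0.70 and 0.79, and the sparse GADD45G with 0.62 and 0.63. GADD45B and SESN2 also had r = 0.68 each with the monocyte markers after that removal. CDKN1A followed the platelet markers with 0.57 and 0.61. Negative values cut across these groups: after the removal, r with the B cell markers was −0.70 for GADD45A, −0.70 for GADD45B and −0.68 for SESN2, and r with the T cell markers was −0.63 for GADD45B. For CDKN1B, MDM2 and SESN1 no list reached an absolute r of 0.6 after the removal. Before it, MDM2 had −0.63 with the T cell and 0.61 with the monocyte markers, and CDKN1B had −0.60 with the platelet markers. The part of these marker changes in the changes of the 9 genes was not tested.

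**Figure D4:**
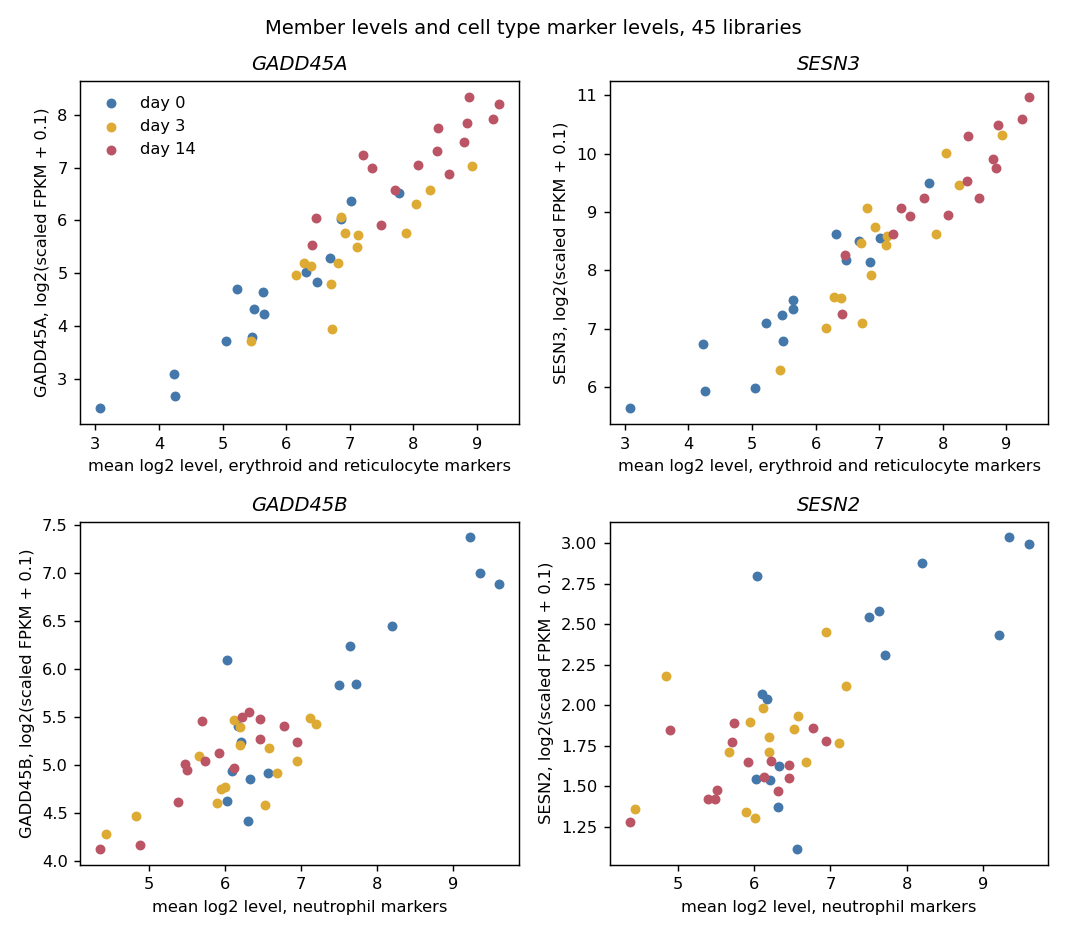
Log2 level of GADD45A and SESN3 against the mean log2 level of 16 erythroid markers, and of GADD45B and SESN2 against that of 10 neutrophil markers; each point is 1 of 45 libraries, coloured by day. For GADD45A and SESN3 the 3 days lie along a single band (r = 0.94 for both). Most of the highest GADD45B and SESN2 levels are day 0 libraries with high neutrophil markers. The day 0 library of animal 10 is an exception, with SESN2 at 6.85 scaled FPKM and a neutrophil mean of 6.029.

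**Figure D5:**
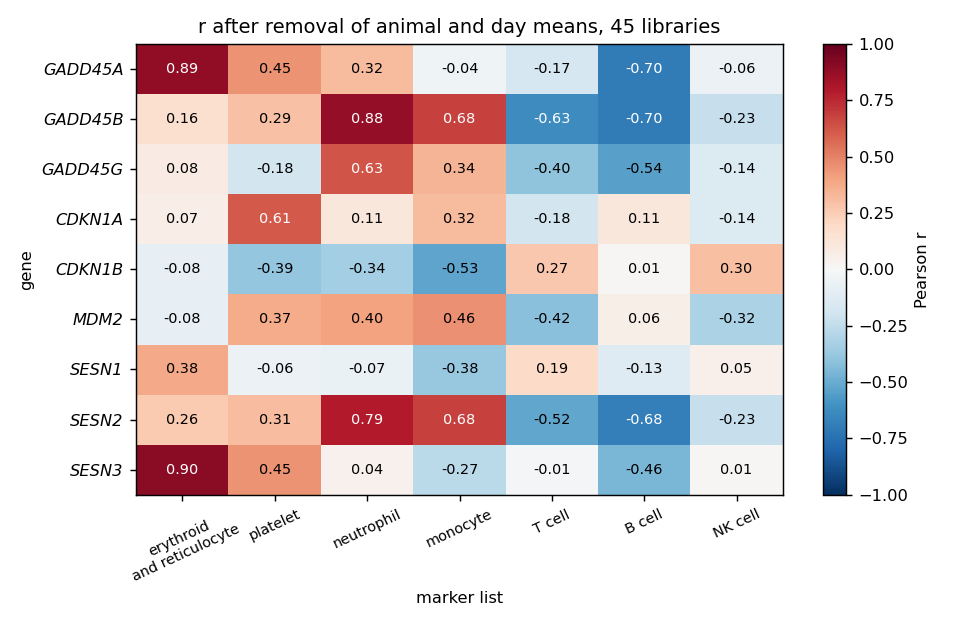
Pearson's r between each of the 9 genes (vertical axis) and the mean log2 level of each marker list (horizontal axis) over 45 libraries, after removal of animal and day means; colour and the printed value give r. The high values are those of GADD45A (0.89) and SESN3 (0.90) with erythroid markers and of GADD45B (0.88) and SESN2 (0.79) with neutrophil markers.

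Members were also compared with each other. GADD45A and SESN3 had r = 0.92 with each other over the 45 libraries, and 0.83 after removal of animal and day means, whereas GADD45A had r near 0 with its relative GADD45B (0.31 after removal). GADD45B and SESN2 had r = 0.75, and 0.84 after removal. CDKN1A ran against CDKN1B, with −0.51, and −0.56 after removal. With MDM2 it had r = 0.28, and 0.59 after removal.

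Among the 10939 genes with a mean of at least 5 CPM, the 3 most like each member were picked by r over the 45 libraries. For GADD45A they were SLC25A38, the mitochondrial carrier needed for heme synthesis, TFDP2, a partner of E2F factors, and IMPA2, with r = 0.970, 0.967 and 0.963. For SESN3 they were PPP1CB (0.980), RIOK3 (0.979) and MXI1 (0.967), of which PPP1CB is a phosphatase subunit and MXI1 an antagonist of MYC. For GADD45B they were DUSP1 (0.910), an early response phosphatase that switches off p38 and JNK, FUT7 (0.908), which makes selectin ligands on leukocytes, and the myeloid factor CEBPB (0.906). For SESN2 they were RAB3D, IL17RA and DGCR2, with r from 0.833 to 0.837. For CDKN1B they were BRWD1 (0.921), CDKN2AIP (0.915) and ATL2 (0.891). After removal of animal and day means, r was 0.921 to 0.929 for the 3 genes of GADD45A, 0.945 to 0.975 for those of SESN3, 0.871 to 0.935 for those of GADD45B, 0.775 to 0.846 for those of SESN2 and 0.882 to 0.917 for those of CDKN1B.

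The other 4 members had weaker likeness. SESN1 was most like IL7R (0.708), the interleukin-7 receptor of lymphocytes, BIRC3 (0.698) and TAF4B (0.682), which after removal of animal and day means had r = 0.703, 0.556 and 0.439. MDM2 was most like SMAP2 (0.761), CLCN5 (0.759) and PACSIN2 (0.747). CDKN1A was most like NEURL1B (0.718), CYFIP1 (0.701) and PTGIR (0.673), the prostacyclin receptor of platelets. GADD45G was most like ALOX5AP (0.753), which leukotriene synthesis needs, LOC103233913 (0.726) and LOC103233123 (0.726). After the removal these were 0.715 to 0.798 for MDM2, 0.653 to 0.701 for CDKN1A and 0.707 to 0.721 for GADD45G.

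Other p53 target genes moved in both directions. Of 36 tested, 7 rose and 6 fell on day 3 vs. day 0, which is 36.1% against 19.2% of all genes, and 8 rose and 8 fell on day 14 vs. day 0, which is 44.4% against 44.0% of all genes. Without TMM scaling the splits were 5 up and 4 down on day 3, and 3 up and 27 down on day 14. Of all 18753 genes, 1168 rose and 1232 fell on day 3 in that setting, and 1742 rose and 9360 fell on day 14. These counts are also the background for the unscaled splits of the lists below. PERP, a membrane protein of p53-dependent cell death, went from 0.895 ± 0.328 to 1.93 ± 0.561 scaled FPKM on day 14, with a log2 fold change of 1.04 (standard error 0.14, adjusted p = 1.22e-06). ABHD4, a lipid hydrolase, rose by 1.47 (9.51e-06). The antiproliferative gene BTG2 fell from 38.9 ± 14.3 to 23.6 ± 6.06 (−0.67, adjusted p = 4.33e-05), and FBXW7, a ubiquitin ligase subunit that targets cyclin E, changed by −0.38 (0.000444).

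Of 20 regulators of p53, 2 fell on day 3, and 4 rose and 3 fell on day 14 vs. day 0, with 1 down on day 3 and 3 up and 13 down on day 14 without scaling. These are 10% and 35.0% of the list, against 19.2% and 44.0% of all genes. MDM4, the partner of MDM2 in holding p53 down, fell from 42.9 ± 10.1 to 26.2 ± 6.02 scaled FPKM on day 14, a log2 fold change of −0.71 (standard error 0.11, adjusted p = 8.04e-06), with every one of the 15 animals lower. TP53BP1, which acts at DNA breaks, fell by 0.36 on the log2 scale (0.00043). The checkpoint kinase CHEK1 rose by 0.71 (adjusted p = 3.25e-05), and USP7, which removes ubiquitin from p53 and MDM2, by 0.66 (0.0002).

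Among 22 other cell cycle genes (CDK inhibitors, cyclins and CDKs, with RB and E2F family members, PCNA, SKP2 and CKS1B), 3 rose on day 3 vs. day 0, and 13 rose and 2 fell on day 14 vs. day 0. These are 13.6% and 68.2% of the list, against 19.2% and 44.0% of all genes, and without scaling 4 rose on day 3, and 6 rose and 9 fell on day 14. CCNB1, the cyclin of entry into mitosis, rose from 6.94 ± 2.79 to 17.2 ± 6.38 scaled FPKM on day 14, with a log2 fold change of 1.28 (standard error 0.17, adjusted p = 1.32e-06), and E2F1, a driver of S phase entry, by 1.23 (3.09e-06). The cyclin CCND1 fell by 0.39 (0.00335) and its kinase CDK6 by 0.21 (0.0135).

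Of the 9 kinases that link GADD45 proteins to p38 and JNK, 2 rose and 2 fell on day 3, and 3 rose and 1 fell on day 14 vs. day 0 (without scaling 2 up and 1 down on day 3, and 2 up and 5 down on day 14). Each count is 44.4% of the list, against 19.2% of all genes on day 3 and 44.0% on day 14. MAP2K3, a kinase of p38, rose by 1.45 on day 14 (adjusted p = 3.3e-05) and MAP2K7, a kinase of JNK, by 1.17 (3.39e-05). MAPK14, p38 alpha itself, fell from 93.9 ± 58.8 to 41.6 ± 5.21 scaled FPKM, a log2 fold change of −0.96 (standard error 0.16, adjusted p = 2.66e-05).

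Of 24 genes of sestrin, GATOR and mTORC1 control, 7 rose and 2 fell on day 3, and 7 rose and 3 fell on day 14 vs. day 0 (without scaling 2 up and 2 down on day 3, and 3 up and 12 down on day 14). These are 37.5% and 41.7% of the list, against 19.2% and 44.0% of all genes. Of the 3 subunits of GATOR1, a complex that restrains mTORC1, NPRL3 changed by 1.8 (adjusted p = 1.02e-05) and DEPDC5 by −0.58 (6.12e-05) on day 14 vs. day 0, while NPRL2 had a value of 0.10 that did not pass (0.365). RHEB, the GTPase that activates mTORC1, rose by 0.75 (4.53e-06) in 15 of 15 animals, and TSC1, which holds RHEB off, fell by 0.50 (0.000376).

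Of 12 transcription factors known to act on the members, 2 rose and 3 fell on day 3, and 4 rose and 4 fell on day 14 vs. day 0 (without scaling 2 up and 2 down on day 3, and 2 up and 8 down on day 14). These are 41.7% and 66.7% of the list, against 19.2% and 44.0% of all genes. FOXO3 rose from 76.1 ± 62.6 scaled FPKM on day 0 to 185 ± 128 on day 3 and 358 ± 278 on day 14, and the log2 fold change on day 14 was 2.29 (standard error 0.33, adjusted p = 2.61e-06). FOXO4 rose by 2.03 (7.53e-06), whereas FOXO1 fell by 0.53 (1.96e-06) and was lower in 15 of 15 animals. RELA, the activating NF-kB subunit, fell from 6.09 ± 1.53 to 4.0 ± 0.729 (log2 fold change −0.58, adjusted p = 0.0001). The genes named here as called from each list kept their direction on day 14 vs. day 0 and their call without TMM scaling (NPRL2, which was not called, was named after its value was seen).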

How the data were processed

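Whole-blood RNA (stranded libraries, ribosomal and globin RNA removed) was sequenced as paired ends. The authors aligned reads with STAR, counted fragments per gene with HTSeq and deposited FPKM, with no scaling between libraries. All values above 0 (100%) were whole multiples, within 0.02, of 1 fragment's worth, which gave the fragments per library. FPKM were divided by TMM factors, computed from these fragments, 0.1 was added, and log2 values of genes over 0.5 CPM in at least 3 libraries were fitted with limma 3.58.1 in R 4.3.3, with the animal as a block and Benjamini-Hochberg adjustment over all 18753 genes. The animal labels pair the samples; after removal of day means, samples of an animal correlated with mean r = 0.328 (lowest −0.0433), of different animals with −0.0382. The pipeline was tested on simulated data. The 9 genes, the pathway and marker lists were chosen with earlier results of these data known. From each pathway list, up to 2 called genes per direction with the lowest adjusted p on day 14 vs. day 0 are named. RNA integrity numbers from the study's supplement served only as a covariate. No sequences are shown.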

Additional observations from a re-analysis of the deposited data

How the results depend on the processing

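Of 648 alternative fits of a member's fold change (9 genes, 3 comparisons, 15 animals left out in turn and 9 other settings), 599 kept direction and side of the threshold, 13 lost the call, 22 gained it and 14 turned. The cause of these shifts was not tested. Without the replicate block, 3 members passed on day 3 vs. day 0 (GADD45B, CDKN1A and CDKN1B; 2287 genes in all) and 1, GADD45A, on day 14 vs. day 3 (2511 genes), and the block changed no other member call. With the RNA integrity number added to the block, the same 3 members passed on day 3, and genes called numbered 2772 between day 0 and day 3, 4070 between day 0 and day 14 and 1838 between day 3 and day 14. With that covariate and no block, an alternative chosen after the data were seen, members numbered 2 on day 3 and 1 on day 14 vs. day 3, CDKN1B was lost on day 3 (adjusted p = 0.0568), and genes numbered 1436, 3730 and 1135 in the 3 comparisons. Without TMM scaling, 8 members passed between day 0 and day 14 and 6 between day 3 and day 14 (9574 genes). That setting turned CDKN1A on day 14 vs. day 0 (−0.13), GADD45B (−0.30), GADD45G (−0.22) and CDKN1B (−0.24) on day 14 vs. day 3, and MDM2 on day 3 vs. day 0 (−0.03), none of them a call. SESN1 on day 14 vs. day 3 came to 0.00 with the covariate and no block.

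With 1 animal left out at a time, members called on day 14 vs. day 3 numbered 2 to 4 (4 without animal 7, with CDKN1A and MDM2 added), and genes 2675 (without animal 8) to 5183. MDM2 on day 3 vs. day 0 then lay between −0.03 and 0.05, and GADD45G on day 14 vs. day 3 between −0.05 (without animal 7) and 0.26. Adding 1 or 0.01 before the logarithm, applying no filter on low values, a mean-variance trend and a fit to the recovered fragments (voom, 3518, 7847 and 4412 genes) moved no count past 1.5 times. GADD45G rested on 2 to 60 fragments per library, so that counting error bears on its values.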

Other observations

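Some genes of the pathway lists that the naming rule left out also changed against day 0. They were chosen after their values were seen. CDKN1C, the third inhibitor of the CDKN1 family (p57), rose in 15 of 15 animals on day 3, from 3.01 ± 2.11 to 7.01 ± 4.92 scaled FPKM, a log2 fold change of 1.19 (standard error 0.23, adjusted p = 0.000786 by limma), and stood at 7.95 ± 4.16 on day 14 (1.5 vs. day 0, adjusted p = 5.32e-06). Its r with the erythroid markers over the 45 libraries was 0.38, against 0.86 for CDKN2C, another inhibitor, which rose by 1.36 on day 14 vs. day 0 (5.3e-06). GDF15, a secreted stress cytokine and p53 target, was low, at 0.264 ± 0.243, 0.675 ± 0.444 and 0.687 ± 0.365 scaled FPKM, and rose by 1.14 on day 3 (0.00224) and 1.21 on day 14 (0.000273).

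NR3C1, the glucocorticoid receptor, went from 52.9 ± 8.77 to 40.4 ± 7.01 scaled FPKM on day 3 (log2 fold change −0.39, adjusted p = 0.00163, 14 of 15 animals lower) and was 40.4 ± 5.78 on day 14 (−0.38, 0.000358, 13 of 15 lower). PPM1D, a p53-induced phosphatase, went from 20 ± 10.9 scaled FPKM to 12.2 ± 2.01 on day 3 and 12.9 ± 2.69 on day 14 (log2 fold changes −0.55 and −0.49, adjusted p = 0.0158 and 0.0149), with 10 and 9 of 15 animals lower. DDIT3, the integrated stress response factor CHOP, changed by −0.63 on day 3 (0.00564), and its day 14 value of −0.37 did not pass (0.0536). Without TMM scaling these values against day 0 kept their direction, and that of DDIT3 on day 14 then passed (−0.79, 3.88e-05). NR3C1 also differed between day 3 and day 14 in that setting (−0.38, 0.0163), against 0.01 with scaling (0.96).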
